A study of Mus musculus with 2 samples.

Results

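Myeloid cells that meet a T cell also tell it whether to respond, through surface ligands that add to the antigen signal or restrain it. The transcripts of 10 genes of this kind were followed in monocytic myeloid-derived suppressor cells (M-MDSCs) isolated from mouse mammary tumours. The genes were Cd274, Pdcd1lg2, Cd80, Cd86, Cd40, Icosl, Lgals9, Havcr2, Cd200r1 and Sirpa, taken as a list of costimulatory and inhibitory ligands and receptors, and every probe whose RefSeq transcript belongs to one of them was used. All 10 genes were found, with 11 probes, among 20653 genes and 27223 named probes on the array.

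The cells came from female BABL/c mice injected with 1000000 cells of the 4T1 mammary carcinoma line after a day without food. All mice carried the same tumour, and the groups differed in diet. The normal-salt diet (NSD) group received chow with 0.4% NaCl and tap water, and the high-salt diet (HSD) group received chow with 4% NaCl and drinking water with 1% NaCl, each for 16 days. M-MDSCs were taken from the tumours with a magnetic bead kit after staining with an antibody to GR-1 or Ly-6G, equal numbers of cells were mixed within a diet group, and the pooled RNA was hybridised to 1 array per diet. No spread between mice can be computed from these arrays, no test of the diet was possible, and every difference below compares a single pool with a single pool.

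PD-L1 (Cd274) and PD-L2 (Pdcd1lg2) bind PD-1 on T cells and restrain them. CD80 and CD86 bind CD28, which supports T-cell activation, and CTLA-4, which opposes it, and the ICOS ligand (Icosl) acts through ICOS. CD40 receives the CD40 ligand signal of helper T cells and licenses the myeloid cell to stimulate. Galectin-9 (Lgals9) is one of the ligands described for TIM-3 (Havcr2), an inhibitory receptor found on T cells, macrophages and dendritic cells. The CD200 receptor (Cd200r1) and SIRPα (Sirpa) are inhibitory receptors of the myeloid cell itself, engaged by CD200 and by the don't-eat-me signal CD47. In tumours the inhibitory ones among these molecules are known as points at which myeloid cells hold T cells and phagocytosis in check.

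The arrays were of like quality. With NSD the 75th percentile of the processed signal was 252.2 intensity units and 71.9% of the probes were well above background, and with HSD these were 232.9 and 72.4%. A probe that was not well above background is called dim, and a gene is called usable when a probe of it gave a fold change or a bound on one. Each array was scaled by its own 75th percentile before a log2 fold change, the HSD value minus the NSD value, was taken. All 11 probes of the 10 genes were well above background on both arrays, each was printed as 1 spot per array, and none was flagged or saturated. Signals are therefore given with the error that the extraction software assigned to the spot, and log2 fold changes with the error that follows from both spots, which was between 0.20 and 0.21. These errors cover a spot as modelled by the software, at a nearly constant share of the signal for all 11 probes. They are not a spread measured between spots. They hold nothing of the variation between mice or cell preparations.

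Transcripts of TIM-3, galectin-9 and PD-L1 were lower with HSD. By the brightest probe of each gene and the 75th percentile scaling, those of the other ligands and receptors differed by less than 1.5-fold. The other probe of Cd80 was 1.58-fold lower, and Cd200r1 was at least 1.5-fold lower under 3 of 10 alternative settings. Of the 10 genes, 3 were at least 1.5-fold lower with HSD (Havcr2, Lgals9 and Cd274) and 0 were at least 1.5-fold higher. For comparison, 10.3% of the 16316 genes that could be called on the arrays were lower by this measure and 9.86% were higher. The 3 lower genes are thus 3 of 10 against about 1 in 10 of all genes, a count too small to set the list apart, and no test was run on it. Counted by probe, 4 of 11 were lower, against 8.92% of all usable probes, and 0 were higher, against 10.2%. At least 2-fold lower were Havcr2 and Lgals9, 2 of the 10 genes, against 4.17% of all genes. The median log2 fold change of the 10 genes was −0.16, beside 0.045 over all genes.

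**Figure D1:**
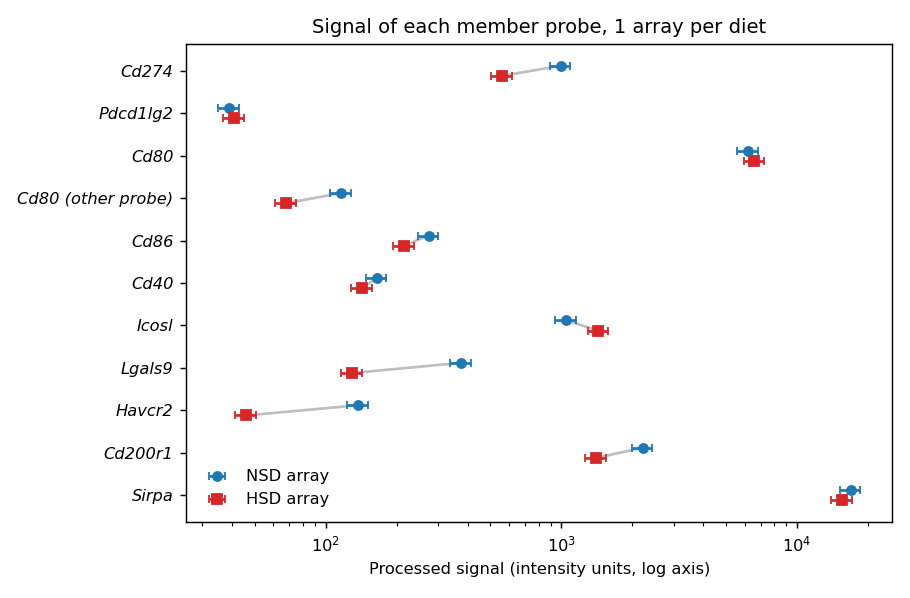
Processed signal of each of the 11 probes on the NSD array (circles) and the HSD array (squares), in intensity units on a log axis, with bars for the error of the spot given by the extraction software. The signals of Havcr2, Lgals9 and Cd274 lie furthest apart between the diets, and those of Sirpa, Pdcd1lg2, Cd40 and the brighter Cd80 probe overlap within their errors.

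The promoter windows of the 3 lower genes, and of Pdcd1lg2 as the neighbour of Cd274, show what sequence lies at their starts. They run from 250 bases before to 50 bases after the RefSeq start site on GRCm38.p6, read 5′ to 3′ along the gene. The array itself was annotated on an older assembly and measured no position in them. The windows are chr11:78984875-78985174 on the minus strand for Lgals9, chr11:46454681-46454980 on the plus strand for Havcr2, chr19:29367188-29367487 on the plus strand for Cd274 and chr19:29410669-29410968 on the plus strand for Pdcd1lg2. Capitals mark matches to the motifs searched for.
Lgals9: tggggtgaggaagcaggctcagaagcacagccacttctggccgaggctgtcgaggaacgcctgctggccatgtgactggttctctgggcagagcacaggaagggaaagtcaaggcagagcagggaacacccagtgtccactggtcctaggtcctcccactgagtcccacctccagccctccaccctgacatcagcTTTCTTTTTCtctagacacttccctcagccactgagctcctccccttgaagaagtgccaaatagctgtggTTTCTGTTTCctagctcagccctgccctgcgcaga
Havcr2: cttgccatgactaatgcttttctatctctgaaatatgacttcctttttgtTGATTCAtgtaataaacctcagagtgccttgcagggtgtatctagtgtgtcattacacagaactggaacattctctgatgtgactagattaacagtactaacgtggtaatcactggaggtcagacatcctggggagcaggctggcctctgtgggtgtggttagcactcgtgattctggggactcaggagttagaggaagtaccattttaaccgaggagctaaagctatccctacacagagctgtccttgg
Cd274: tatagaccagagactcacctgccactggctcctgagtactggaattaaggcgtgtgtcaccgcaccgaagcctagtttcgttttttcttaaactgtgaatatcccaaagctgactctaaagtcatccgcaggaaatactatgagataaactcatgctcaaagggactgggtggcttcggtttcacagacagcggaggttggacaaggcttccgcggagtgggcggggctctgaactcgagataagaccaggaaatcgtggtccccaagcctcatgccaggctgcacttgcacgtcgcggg
Pdcd1lg2: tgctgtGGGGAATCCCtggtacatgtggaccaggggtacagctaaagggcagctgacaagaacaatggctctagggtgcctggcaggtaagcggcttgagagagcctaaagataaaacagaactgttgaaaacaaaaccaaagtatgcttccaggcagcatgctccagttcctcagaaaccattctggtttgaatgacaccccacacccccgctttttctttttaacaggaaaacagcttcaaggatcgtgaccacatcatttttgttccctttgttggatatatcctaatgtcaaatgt
Both strands of each window were searched for the core of the interferon-stimulated response element (GAAA, any 2 bases, GAAA), the STAT element called GAS (TTCNNNGAA), the AP-1 element (TGANTCA), the NF-κB consensus and the NFAT5 element called TonE. Overlapping matches of different motifs were allowed. The capitals in Lgals9 are 2 matches to the interferon element on the reverse strand, those in Havcr2 are an AP-1 match and those in Pdcd1lg2 an NF-κB match that reads on both strands. No motif of the 5 was matched in the Cd274 window. Of all 32851 promoter windows in the RefSeq table, 3.44% hold the interferon element, 8.3% the GAS element, 7.81% the AP-1 element, 4.51% the NF-κB consensus and 4.96% the TonE element. Such matches describe letters in a window, and the arrays do not measure whether a factor bound there. Windows were found for 6 of the 10 genes. Of the windows not shown, that of Cd80 held an AP-1 match with the same letters as in Havcr2, and that of Icosl held no match.

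Among the inhibitory ligands, PD-L1 was past 1.5-fold and PD-L2 was not. The signal of Cd274 was 993 ± 99.3 intensity units with NSD and 559 ± 55.9 with HSD (± spot error, 1 array each). Its log2 fold change was −0.71 ± 0.20, a level 1.64-fold lower with HSD. The gene stayed past 1.5-fold under all 10 alternative settings that give a value, with log2 fold changes between −0.78 and −0.64. Some of these settings could not move it. Cd274 has 1 unflagged probe, well above background on both arrays. Filters on dim probes and the median over probes therefore returned the same value. Scaling on the median or on probes above background, and keeping outlier spots, shifted all such genes by a constant. The same holds for every gene of the list but Cd80. The PD-L2 gene Pdcd1lg2 starts 43481 bases from Cd274 on the same strand of the same chromosome. Its signal was 39.0 ± 4.02 with NSD and 41.0 ± 4.21 with HSD, and its log2 fold change of 0.18 ± 0.21 was smaller than the error of the spots.

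Of the classical costimulatory ligands, Cd86 was within 1.5-fold and the direction of Cd80 depended on the probe. Cd80 had 2 probes, both assigned to the same RefSeq transcript, and they disagreed in direction. The brighter one had a signal of 6188 ± 619 with NSD and 6591 ± 659 with HSD, a log2 fold change of 0.21 ± 0.20. The other one had 116 ± 11.6 and 67.9 ± 6.86, a log2 fold change of −0.66 ± 0.21, which is 1.58-fold lower, or −0.36 with limma's normexp background correction (normexp from here on), an alternative to that of the software. Taken as the median of its probes, Cd80 had a log2 fold change of −0.23, so the sign of this gene rests on the probe chosen. The probes' own sequences were not analysed here, and which transcript form each one sees is not known.

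Cd86 was measured at 274 ± 27.4 with NSD and 216 ± 21.6 with HSD. Its log2 fold change was −0.23 ± 0.20, within 1.5-fold under every setting tried. The receptor gene Cd40 had signals of 165 ± 16.5 and 143 ± 14.3, with a log2 fold change of −0.094 ± 0.20 that lay inside the spot error. Icosl had the highest value of the list, with signals of 1048 ± 105 and 1437 ± 144. Its log2 fold change of 0.57 ± 0.20, or 1.49-fold, stood just under the threshold of 1.5-fold. The value of Icosl stayed under it in all 10 alternative settings (0.49 to 0.58), some of which could not move it.

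TIM-3 and its ligand galectin-9 were the genes with the largest differences of the list. Havcr2 had a signal of 137 ± 13.8 with NSD and 45.9 ± 4.74 with HSD, a log2 fold change of −1.47 ± 0.21, which is 2.76-fold lower. Lgals9 had 375 ± 37.5 and 130 ± 13, a log2 fold change of −1.42 ± 0.20, which is 2.67-fold lower. Both were past 1.5-fold in all 10 alternative settings, some of which could not move them, as described for Cd274. The size for Havcr2 depended on the background correction, with a log2 fold change of −0.78 under normexp, and that of Lgals9 was −1.16 there. Spots of one probe within an array had a median SD on the log2 scale of 0.081 at signals between 49.1 and 182 intensity units, where Havcr2 lay with NSD and Lgals9 with HSD. It was 0.14 between 16.6 and 49.1, where Havcr2 lay with HSD, and 0.061 between 182 and 915, where Lgals9 lay with NSD and Cd274 with HSD. Above 915, where Cd274 lay with NSD, it was 0.060. The largest log2 difference between spots of a probe was 0.67, 1.42, 0.88 and 1.84 in these signal ranges, in the order given. Each probe of Havcr2, Lgals9 and Cd274 had a single spot per array, so a deviation of that size could not be seen in them.

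The inhibitory receptors of the myeloid cell differed from each other. Cd200r1 went from 2209 ± 221 with NSD to 1404 ± 140 with HSD, a log2 fold change of −0.54 ± 0.20, or 1.45-fold lower, just inside the threshold. It was past 1.5-fold under quantile normalization (−0.62), cyclic loess (−0.62) and in the authors' deposited log2 values (−0.65), and not under the other 7 settings. Some of those 7 could not move it, as described for Cd274. Sirpa had 16852 ± 1685 and 15481 ± 1548, and its log2 fold change of −0.0081 ± 0.20 lay inside the spot error. The ectodomain of SIRPα is shared closely with related SIRP genes, and whether its probe also sees them was not tested.

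**Figure D2:**
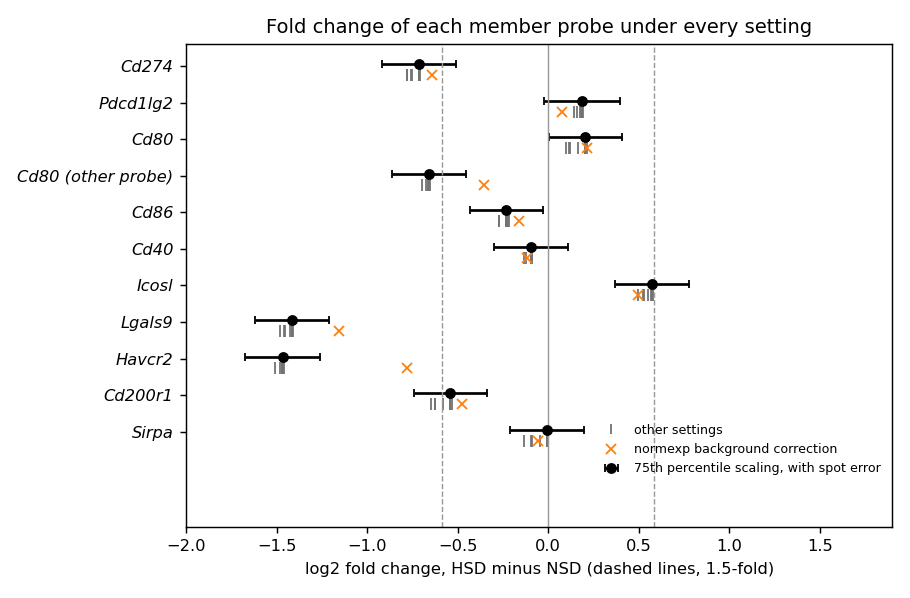
Log2 fold change (HSD minus NSD) of the 11 probes, with bars for the error from both spots, dashed lines at 1.5-fold, grey ticks for the other settings and crosses for the normexp background correction. Havcr2, Lgals9 and Cd274 lie left of the lower dashed line under every setting shown, and the probes of Cd80 lie on either side of 0.

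Markers of other cell types were read beside these genes. In a pooled sample fewer cells of a type and less RNA per cell cannot be told apart. Ly6c1 is a gene of the Ly-6C antigen by which M-MDSCs are defined. It had a bright probe with signals of 51811 and 48478 and a log2 fold change of 0.018, and its other probe had −0.42. Ly6c2, also on the marker list, had no named probe. Of 8 macrophage markers, 7 had a named probe, and 4 of them were at least 1.5-fold lower with HSD (3 with normexp) while 0 were higher. The median log2 fold change of this list was −1.36, or −0.54 with normexp. Of its 7 genes 6 were negative, against 7464 of all 16316 genes. Mrc1, the mannose receptor, had signals of 134 with NSD and 5.49 with HSD, and Mertk, a receptor for apoptotic cells, had 95.9 and 15.4. The complement gene C1qc, measured by 10 spots per array, had 52.6 and 5.61, and C1qa, dim with HSD, was at least 2.56-fold lower. The sizes depended on the background correction. The log2 fold changes of Mrc1, Mertk and C1qc were −4.50, −2.52 and −3.11, against −1.56, −1.01 and −0.74 with normexp, and that of C1qa was −0.075 with normexp, within 1.5-fold. C1qb, Csf1r and Adgre1 had log2 fold changes of 0.33, −0.37 and −0.55. Summed over the list in units of each array's 75th percentile, the macrophage markers came to 73.0 with NSD and 53.5 with HSD. Nearly all of these sums came from Csf1r (45.0 and 34.8) and Adgre1 (26.7 and 18.3), both within 1.5-fold, so they say little of the dimmer markers. Havcr2, Lgals9 and Cd274 were lower alongside these markers, and the part of macrophages in those differences was not tested.

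The other marker lists had medians closer to 0. Of 8 dendritic cell markers with a usable probe, 2 were lower (Cd209a and Batf3) and 2 higher (Clec9a and Itgax), with a median of 0.023. With normexp Itgax alone of these 4 was past 1.5-fold (0.65), and Cd209a, Batf3 and Clec9a had log2 fold changes of −0.24, −0.41 and 0.23. Of 7 B cell markers, all well above background on both arrays, 0 were past 1.5-fold. Of these, 5 were positive and 2 negative, beside 8852 positive and 7464 negative among all 16316 genes. The median of the B cell markers, 0.33, had the same sign as Icosl, a ligand that B cells also carry. A positive median was not particular to B cells, since that of the carcinoma list was 0.40, or 0.16 with normexp. The part of B cells in the Icosl value was not tested. Neutrophil genes were well above background for all 7 markers with a named probe on both arrays, and 0 of the 7 were past 1.5-fold (median 0.078). Their signals were high, with S100a8 at 57914 and 56478, Ltf at 51766 and 51993, and the brighter Camp probe at 61817 and 59920. The summed level of the neutrophil list was 1111 with NSD and 1158 with HSD, above the 411 and 476 of the monocyte list. How many granulocytes the preparations held was not tested. Monocyte markers had a median of −0.17, with Vcan (0.56 with normexp, within 1.5-fold) and Chil3 higher and Ccr2 lower among 6. Of 6 usable T and NK cell markers, Cd3e was lower, with a median of 0.036 for the list, and Ncr1 was dim on both arrays. The 6 usable carcinoma markers had signals between 5.97 and 45.0 intensity units with NSD, and of these Krt8, Krt18 and Epcam were higher, and Krt19 was dim on both. With normexp Krt8, Krt18 and Epcam were within 1.5-fold (0.17, 0.34 and 0.23). The summed level of the carcinoma list was 0.434 with NSD and 0.476 with HSD. Of 5 usable fibroblast markers, Col3a1 and Dcn were lower and Pdgfrb higher (median −0.55, or −0.032 with normexp), and Pdgfra was dim on both. With normexp 0 of the fibroblast genes were past 1.5-fold. The 5 endothelial and 4 erythroid markers with a usable probe held 0 genes past 1.5-fold, with medians of 0.12 and 0.052. A further probe of Kdr, printed as 10 spots per array, had a log2 fold change of −2.49, so the probes of this endothelial gene disagree. The medians of the neutrophil (−0.075 to 0.085), dendritic cell (−0.095 to 0.062), T and NK cell (−0.26 to 0.33) and erythroid (−0.060 to 0.16) lists changed sign among the settings.

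**Figure D3:**
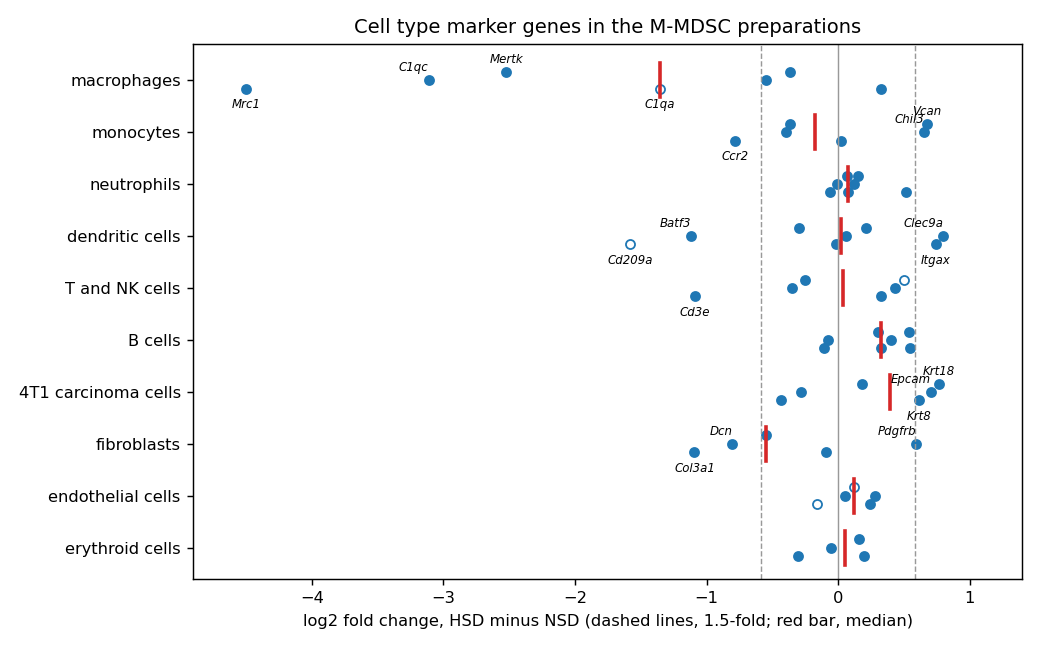
Log2 fold change (HSD minus NSD) of marker genes of 10 cell types, 1 point per gene from its brightest usable probe, open points where the value is a bound, red bars for the median of a list and dashed lines at 1.5-fold. Macrophage markers reach furthest to the left, with Mrc1 at −4.50 and C1qc at −3.11, values that are −1.56 and −0.74 with normexp.

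The partners that the 10 genes act through, and other molecules of the same kind, were described from 5 lists with 64 genes. Of these, 63 had a named probe and 55 a usable one. Past 1.5-fold were 12 genes, 3 higher and 9 lower with HSD, beside 9.86% and 10.3% of all genes. The median log2 fold change of the 55 genes was 0.087, and that of the separate lists was between −0.071 and 0.28. With the normexp correction 0 of the lists' genes were higher and 6 were lower.

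Among other costimulatory ligands, 2 of 10 usable genes were higher and 2 lower. Tnfsf9, the 4-1BB ligand, had signals of 19.4 with NSD and 41.9 with HSD, a log2 fold change of 1.22 ± 0.22, or 0.49 with normexp. Tnfsf4, the OX40 ligand, was dim with NSD and reached a signal of 7.79 with HSD, at least 1.83-fold higher, with a log2 fold change of 0.20 under normexp. Cd48, a SLAM-family molecule that binds CD244, had signals of 1465 and 726 (log2 fold change −0.90 ± 0.20), and its second probe was lower as well, by 1.59-fold. Tnfsf14, called LIGHT, had 392 and 234 (log2 fold change −0.63 ± 0.20, or −0.53 with normexp, which is within 1.5-fold). The receptor that 4-1BB ligand binds, Tnfrsf9, had signals of 1938 and 875 on its brighter probe, a log2 fold change of −1.03 ± 0.20. Its other probe, dim with NSD, was at least 2.82-fold higher, so the probes of Tnfrsf9 disagree, and their median was 0.23.

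Of 11 other inhibitory ligands with a usable probe, 4 were lower and 0 higher by their brightest probes. Nectin2, a ligand of TIGIT, had a log2 fold change of 0.49 on its brighter probe, while its other probe was 2.11-fold higher, at signals of 28.7 and 55.9, and the median of the probes was 0.78. Lgals1, which encodes galectin-1, had signals of 3188 and 1336, a log2 fold change of −1.14 ± 0.20. Fgl2, a soluble suppressor that binds an inhibitory Fc receptor, had 280 and 141 (log2 fold change −0.88 ± 0.20). Fgl1, a ligand of LAG-3, had a signal of 8.98 with NSD and was at least 1.89-fold lower, dim with HSD. Cd200, the ligand of the CD200 receptor, had 337 and 177 (log2 fold change −0.82 ± 0.20). The receptor gene Cd200r1 was lower as well (−0.54 ± 0.20), though past 1.5-fold under only 3 of 10 alternative settings. Cd47, the ligand of SIRPα, had 2 probes with log2 fold changes of 0.24 and 0.26, and like Sirpa it was within 1.5-fold.

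On the side of the T cell, Pdcd1, which encodes PD-1, had signals of 47.8 with NSD and 42.8 with HSD, a log2 fold change of −0.044. Cd28 (118 and 113), Icos (13.5 and 14.0) and Ctla4 (6.65 and 6.87) had log2 fold changes of 0.063, 0.16 and 0.16. Cd40lg was dim on both arrays. Tnfrsf9 was the 1 gene past 1.5-fold among the 7 usable ones. The cells that gave these signals were not identified.

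Of 13 usable genes listed as inhibitory receptors of myeloid cells beside Cd200r1 and Sirpa, 1 was lower and 0 were higher by their brightest probes. What each of them does in these cells was not tested. Further probes of Lair1 and Pilra were past 1.5-fold, lower for Lair1 (−0.60) and higher for Pilra (0.60). The lower gene was Slamf7, with signals of 69.6 and 33.9 and a log2 fold change of −0.93 ± 0.21, or −0.46 with normexp. Pirb, the paired immunoglobulin-like receptor B, had 19937 and 14535, a log2 fold change of −0.34. Among 14 genes of signal transduction and of the stability of PD-L1 at the surface, Dok2, an adaptor by which the CD200 receptor signals, had 1739 and 741, a log2 fold change of −1.12 ± 0.20. Cmtm4, whose product keeps PD-L1 at the cell surface, was higher on its brighter probe by a log2 value of 0.79 ± 0.29 at signals of 8.56 and 13.7, and its other probe had −0.32. With normexp the value of Cmtm4 was 0.22. Of these 14 genes 12 had a positive value, all but Cmtm4 within 1.5-fold, and their median was 0.28. Among all 16316 genes 8852 were positive.

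**Figure D4:**
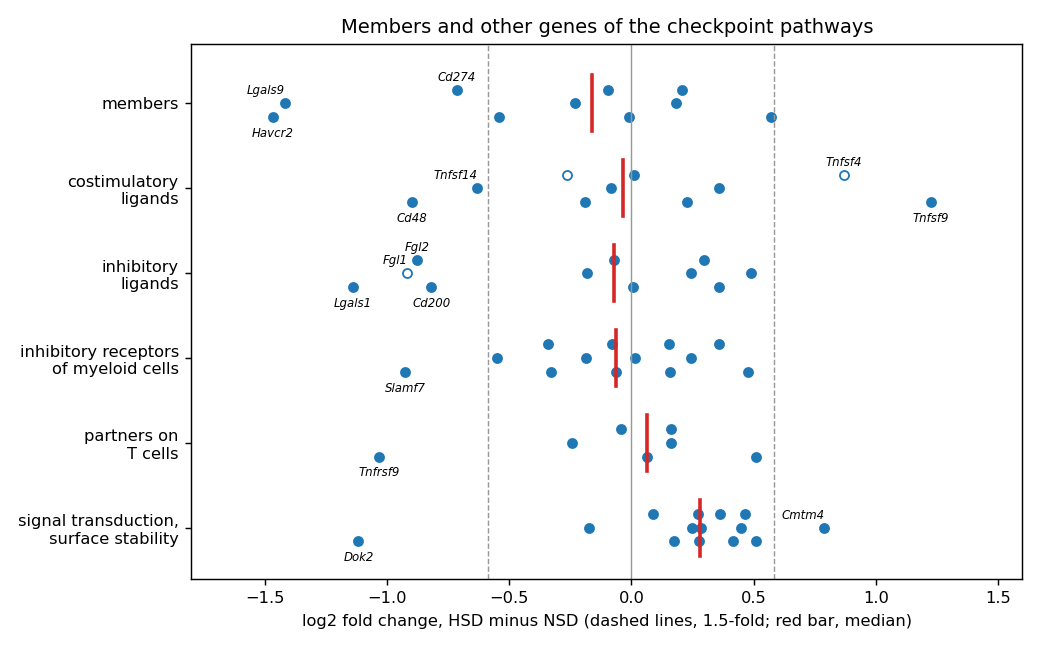
Log2 fold change (HSD minus NSD) of the 10 genes and of 5 lists of other checkpoint genes, 1 point per gene from its brightest usable probe, open points where the value is a bound, red bars for the median of a list and dashed lines at 1.5-fold. The lists' medians lie between −0.16 for the 10 genes and 0.28 for signal transduction and surface stability.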

How the data were processed

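RNA of pooled tumour M-MDSCs was labelled with Cy3 and hybridised to Agilent Mouse GE v2 arrays, 1 per diet. The authors deposited the scanner output, extracted with Feature Extraction 11.0.1.1. Its processed signal and signal error are intensities after the software's background subtraction and spatial detrending, and the arrays were not yet normalized to each other. They also deposited normalized log2 values of the same arrays, made with GeneSpring by a method that is not named in the sources used here.

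Control spots and outlier spots (162 on the NSD array, 179 on the HSD array) were left out, spots of a probe were averaged as log2 values, and each array's 75th percentile was taken off, leaving 39413 probes. RefSeq transcripts, matched without versions to a table of GRCm38.p6, named 69.1% of them. The brightest usable probe stood for a gene. A call needed a signal well above background on at least 1 of the arrays together with a fold change of 1.5 or more. Against a dim signal the fold change was a lower bound, set at the higher of that signal and the lowest signal well above background (4.61 intensity units for NSD, 4.39 for HSD). No test was run, since each diet has 1 array. The genes, lists and settings were chosen with earlier results of these data known. Named are all 10 genes, each gene of the 5 pathway lists past 1.5-fold, and 8 partners whatever their values. Marker genes, and the other probes of a gene, were named after their values were seen.

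Alternatives were the normexp correction of limma with an offset of 50, run on the median signal of each spot and its local background, quantile normalization, cyclic loess, scaling on the median or on probes above background on both arrays, the deposited log2 values, a stricter filter and no filter on dim probes, outlier spots kept, a 2-fold threshold and the median over a gene's probes. The calling step was tested on simulated data. Computations ran in R 4.3.3 (limma 3.58.1) and in Python 3.11.15 (pandas 2.3.3, numpy 2.4.6, matplotlib 3.10.9).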

Additional observations from a re-analysis of the deposited data

How the results depend on the processing

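Under the 11 alternatives set with the design, 0 of the 10 checkpoint genes were at least 1.5-fold higher with HSD, and the number at least 1.5-fold lower was 3 or 4, apart from 2 at the 2-fold threshold. It was 4 with quantile normalization, cyclic loess and the deposited log2 values. There 1836 of 16314, 1991 of 16314 and 1792 of 16274 of all genes were lower, and 1380, 1244 and 1394 higher. It was 3 with normexp, against 655 lower of 16091 genes, and with median scaling, against 1652 of 16314. Counting all 11 probes in place of 1 a gene, an alternative chosen after the data had been seen, gave 4 lower and 0 higher. Normexp gave 619 higher and 655 lower among all genes and 0 higher among the other checkpoint genes. Without a filter on dim probes 2903 genes were higher, 5 of them other checkpoint genes. At 2-fold, 428 genes were higher and 681 lower, among them 1 higher and 3 lower of the other checkpoint genes. Higher genes made up 48.9% of the calls with the 75th percentile, 49.8% with median scaling, 42.9% with quantile normalization, 42.7% with the 75th percentile of probes above background on both arrays, 43.8% in the deposited log2 values and 38.5% with cyclic loess. The median log2 fold change of all genes lay between −0.024 and 0.078. No paired analysis was possible because each diet has 1 array. For the same reason no replicate could be left out. The median SD between spots of one probe was 0.082, or 0.092 with outlier spots kept, and it was 0.24 among probes between 4.71 and 16.6 intensity units.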
